A study of Mus musculus with 24 samples.

Results

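The 10 markers of intestinal tuft cells are described here in 24 RNA sequencing libraries of mouse intestinal organoids. They are Pou2f3, Dclk1, Trpm5, Gnat3, Plcg2, Il25, Il17rb, Alox5ap, Avil and Sh2d6, a list of names drawn up with earlier results of these data known, by a rule that used no measured value. All 10 matched 1 identifier each among the 45706 genes of both deposited count tables. The organoids were grown from C57BL/6N mice, with 12 libraries of proximal small intestine (SI) and 12 libraries of colon (COL). In each tissue 1 culture carried Braf floxV600E/+ (BRAF), 1 carried Trp53 LSL-R172H/+ (p53) and 1 carried both alleles (BRAFp53), and every culture carried Villin::CreERT2, a tamoxifen-activated Cre recombinase driven by the villin promoter, which is active in intestinal epithelium. Induced organoids (on) received 4-hydroxytamoxifen for 24 hours, at 0.5 µM for SI and 3.5 µM for COL, and non-induced organoids (off) received ethanol. RNA was taken on day 8 for SI and on day 3 for COL, and the COL medium also held Wnt3a and the GSK3 inhibitor CHIR99021. Each of the 12 groups has 2 libraries of 1 donor culture, so p-values of on against off measure the spread between parallel samples of that culture and not between mice, and tissue cannot be told apart from dose, day or medium.

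Tuft cells are rare chemosensory epithelial cells with an apical tuft of microvilli. Their formation depends on the POU-domain transcription factor Pou2f3, and they sense luminal metabolites through a taste-like cascade in which a G protein such as gustducin (Gnat3) leads through phospholipase C to the calcium-activated cation channel Trpm5. In the gut they are known as a source of the cytokine interleukin-25 (Il25), which acts on type 2 innate lymphoid cells, and of cysteinyl leukotrienes, whose synthesis needs the 5-lipoxygenase-activating protein Alox5ap. Tuft cells also carry the interleukin-25 receptor subunit Il17rb, the microtubule-associated kinase Dclk1, the actin-binding villin relative Avil and the SH2-domain protein Sh2d6. In bulk libraries fewer tuft cells and less RNA per tuft cell cannot be told apart.

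Library totals ran from 51.2 to 78.2 M (1e6) counts in COL and from 44.4 to 68.2 M in SI, and a level at or under 3 counts, at most 0.0676 counts per 1e6 counts of the library (CPM), was taken as below detection. As a check of the labels, Trp53 lay higher in both on libraries of each p53 and BRAFp53 culture, as did Braf in both on libraries of each BRAF and BRAFp53 culture. The library SI BRAF on replicate 1 stood apart. Its level of Xist, a transcript of the inactive X chromosome in female cells, was 15.4 CPM against 0.206 to 0.437 CPM in the other 3 libraries of that culture and 104 to 150 CPM in the other SI cultures. Whether this library holds RNA of another culture was not tested. In COL Xist was at or under 3 counts in every library. The Y-linked gene Ddx3y was at 51.2 to 71.7 CPM in the COL cultures and at 30.5 to 36.2 CPM in SI BRAF, but at no more than 4 counts in SI p53 and SI BRAFp53. Another Y-linked gene, Eif2s3y, was at 0 to 6 counts in COL BRAF and at 2147 to 3443 counts in SI BRAF, and at 6.33 to 11.3 CPM in COL BRAFp53 against 68.2 to 80.9 CPM in COL p53. The methods of the study name 3 donor mice, 1 per genotype, whereas in each genotype the COL and SI cultures differed in at least 1 sex-linked transcript, and the sources used here do not say which cultures share an animal. All 4 libraries of the COL BRAF culture held the small intestinal transcription factor Gata4 at 35.8 to 54.8 CPM, against at most 2.95 CPM in the other COL cultures. Tests that compare SI BRAF on libraries are given with and without replicate 1. For the COL BRAF culture this was possible in the off comparison and where other COL cultures are compared, but not for the BRAF response in COL, which no other COL culture measures. Of 10 immune markers, Cd3e, Adgre1 and Cpa3 were at or under 3 counts in every library, while 5 passed the filter in each tissue, the myeloid genes Cd14, Cd68, Itgam and Csf1r and the leukocyte gene Laptm5. Of 10 stromal and neural markers Dcn and Sox10 were at or under 3 counts in every library.

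Dclk1 lies at chr3:55242364-55539068 (GRCm38, plus strand), Pou2f3 at chr9:43123939-43210369 (minus), Trpm5 at chr7:143069153-143094642 (minus) and Gnat3 at chr5:17962549-18019834 (plus). Plcg2 lies at chr8:117498291-117635142 (plus), Il25 at chr14:54932695-54935837 (plus), Il17rb at chr14:29996135-30008896 (minus) and Alox5ap at chr5:149264767-149288153 (plus). Avil lies at chr10:127000709-127020994 (plus) and Sh2d6 at chr6:72513641-72521707 (minus). The members are spread over 8 chromosomes. The antisense gene Gm19719 shares 13.31% of the exon bases of Alox5ap, and Avil, Il17rb and Trpm5 each share under 5% with a gene on the other strand. Whether counting used strand was not given in the sources used here, so these reads cannot be assigned with certainty.

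Dclk1 and Avil are the members whose response to BRAFV600E differed between the tissues in the test across all genes, so their promoters are shown as RefSeq gives them for GRCm38.p6, from 250 bases before to 50 bases after each start and in the direction of transcription. The RefSeq table held 8 windows for 7 members, 2 of them for Dclk1, and none for Pou2f3, Il25 or Alox5ap. Capitals mark matches, on either strand, to the letters ATGCAAA, the first 7 of the 8-letter octamer ATGCAAAT bound by POU-domain factors, or to TGANTCA, the site of AP-1, the FOS and JUN dimer downstream of RAF signalling. Both motifs were chosen after earlier results were seen. Dclk1 window 1 is chr3:55242114-55242413 (plus strand), Dclk1 window 2 is chr3:55461478-55461777 (plus) and the Avil window is chr10:127000459-127000758 (plus).
Dclk1 window 1: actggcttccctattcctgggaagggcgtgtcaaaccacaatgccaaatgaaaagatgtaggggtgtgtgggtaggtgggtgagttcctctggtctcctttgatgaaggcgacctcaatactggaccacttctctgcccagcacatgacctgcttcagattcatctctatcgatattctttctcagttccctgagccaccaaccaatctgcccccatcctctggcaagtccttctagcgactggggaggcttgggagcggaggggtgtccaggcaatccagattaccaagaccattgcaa
Dclk1 window 2: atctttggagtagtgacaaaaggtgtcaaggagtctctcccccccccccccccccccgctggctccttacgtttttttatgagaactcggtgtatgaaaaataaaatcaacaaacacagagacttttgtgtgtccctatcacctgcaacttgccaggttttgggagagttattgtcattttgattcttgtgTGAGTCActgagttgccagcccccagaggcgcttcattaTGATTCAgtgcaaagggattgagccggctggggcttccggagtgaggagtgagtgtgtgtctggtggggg
Avil: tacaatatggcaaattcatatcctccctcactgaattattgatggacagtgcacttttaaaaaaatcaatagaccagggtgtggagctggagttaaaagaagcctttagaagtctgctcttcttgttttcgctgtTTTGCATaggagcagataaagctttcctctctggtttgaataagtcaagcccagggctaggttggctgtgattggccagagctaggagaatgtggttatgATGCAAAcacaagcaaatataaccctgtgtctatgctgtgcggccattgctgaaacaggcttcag
The full octamer was in 0 of the 8 member windows and in 1.74% of the 32851 windows of the table. The 7-letter form was in the Avil window alone among the 8, with matches beginning at positions -115 and -15 from the start, and in 4.63% of all windows. The AP-1 letters were in 2 of the 8, Dclk1 window 2 at positions -59 and -20 and Il17rb at -104, and in 7.81% of all windows. A match here describes the letters and is not a site of binding.

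The members were first compared between non-induced organoids, which addresses how the tissues differ before an oncogene is active. Counts of both off libraries were added up per culture, which left 3 COL and 3 SI cultures, tested as separate units. The sources used here do not say which of them share a donor. In p53 and BRAFp53 the COL cultures held Ddx3y and the SI cultures held Xist, and in BRAF they differed in Eif2s3y. Dclk1 stood at 20.8, 18.4 and 18 CPM in the COL BRAF, BRAFp53 and p53 cultures and at 3.76, 4.54 and 3.53 CPM in the SI cultures in the same order. Avil stood at 19.3, 19.8 and 17.0 CPM in COL and at 4.66, 4.13 and 5.14 CPM in SI. For both genes each COL culture lay above each SI culture. The difference was 4.82-fold for Dclk1 (log2 2.27 ± 0.18 SE, edgeR quasi-likelihood adjusted p = 0.00103) and 4.03-fold for Avil (log2 2.01 ± 0.17 SE, edgeR adjusted p = 0.0012).

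Trpm5, the channel at the end of the taste-like cascade, stood at 10.8, 8.93 and 11.5 CPM in the COL BRAF, BRAFp53 and p53 cultures and at 3.93, 3.34 and 1.84 CPM in SI. Again the cultures did not overlap, and the difference was 3.43-fold (log2 1.78 ± 0.32 SE, edgeR adjusted p = 0.00792). Sh2d6 stood at 7.87, 3.12 and 2.09 CPM in COL and at 0.693, 1.43 and 1.1 CPM in SI. The COL BRAF culture was the highest of them by a wide margin. The difference of Sh2d6 was called (log2 2.02 ± 0.56 SE, edgeR adjusted p = 0.0343), but not without the COL BRAF culture (log2 1.25, adjusted p = 0.0672) and not when any other culture but COL p53 was left out. Without the COL BRAF culture Dclk1, Avil and Trpm5 kept log2 differences of 2.18, 1.96 and 1.73 with edgeR adjusted p of 0.00177, 0.00211 and 0.0186, and they were called with each of the 6 cultures left out in turn. With genotype as a block, which was added after seeing the data, Dclk1, Avil and Trpm5 were called at 2.28, 2.01 and 1.84 (edgeR adjusted p = 0.00657, 0.00848 and 0.0253) and Sh2d6 at 1.8 was not (0.101).

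In all, 4 of the 8 members tested were higher in COL and 0 were lower, where 17.0% of the 17789 genes tested were higher in COL and 29.6% were called in either direction. The other 4 gave log2 differences of 1.1 ± 0.54 SE for Pou2f3 (edgeR adjusted p = 0.161), 0.97 ± 0.49 for Alox5ap (0.176), 0.43 ± 0.25 for Plcg2 (0.23) and 0.04 ± 0.34 for Il17rb (0.944). Cultures of both tissues overlapped in each of these. The receptor subunit Il17rb was thus at 3.67 ± 1.16 CPM (SD, n = 3) in COL and 3.56 ± 1.0 CPM in SI, while the median log2 difference of the 8 members was 1.44 and that of all genes tested 0.08. Gnat3 and Il25 did not pass the filter on low counts in this comparison.

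**Figure D1:**
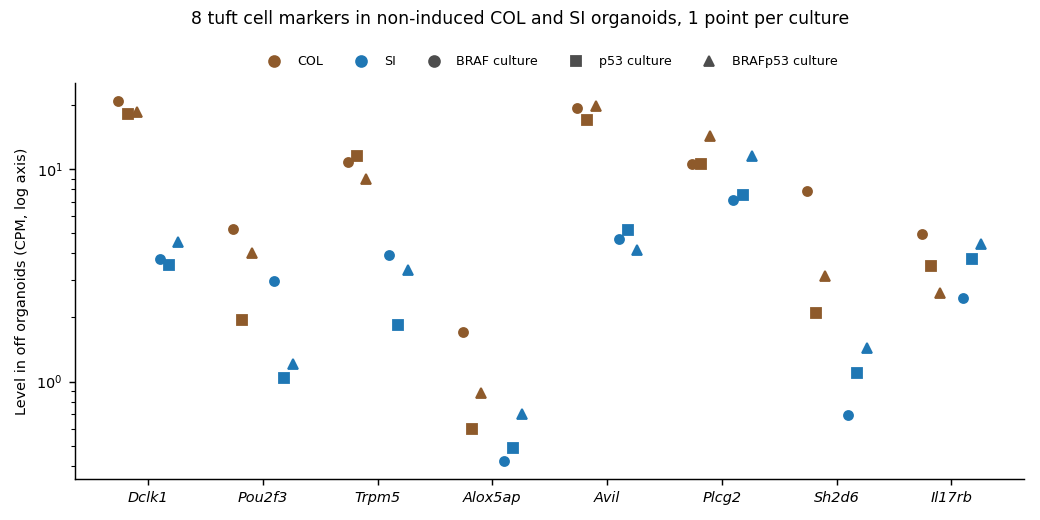
Level in off organoids in CPM (log axis) of the 8 tuft cell markers that passed the filter, 1 point per culture (brown COL, blue SI, symbol by genotype). The COL points lie above the SI points for Dclk1, Trpm5, Avil and Sh2d6, and the tissues overlap for Pou2f3, Alox5ap, Plcg2 and Il17rb.

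Levels of different members were compared per kb of merged exon length. In COL off organoids Avil was the most abundant member per length, at 5.21 to 6.12 CPM per kb by group mean, and Dclk1, with its long transcript, stood at 1.22 to 1.43 CPM per kb. In the SI off groups Plcg2 led, at 1.5 to 2.35 CPM per kb, ahead of Avil at 1.07 to 1.33 CPM per kb. Gnat3 passed the filter on low counts in the fit of COL and not in that of SI. It was not confined to a state but differed by culture. The gustducin gene had 47 and 60 counts in the COL p53 off libraries and 90 and 70 in the COL p53 on libraries, against 0 to 3 counts in the 4 COL BRAF libraries. In COL BRAFp53 it had 3 and 0 counts off and 48 and 4 counts on, so that 1 library held nearly all of them. In SI it reached at most 7 counts. Il25 was at 0 in 19 of the 24 libraries, and the 5 others held 5, 8 and 2 counts (COL off), 5 counts (SI p53 on) and 13 counts (SI BRAFp53 off). A level of Il25 was thus below detection at this depth in most libraries, and it was tested in neither tissue.

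The levels of the 10 members per kb, summed and scaled over all 24 libraries, give an order of the groups as a description. Members do not weigh equally in the sum. Sh2d6 made up 23.3% of it in COL BRAF off and 30.4% in COL BRAF on, against 8.67% in COL p53 off. In SI BRAF off and on Il17rb made up 10.6% and 30.9%, and Dclk1 4.1% and 1.31%. COL BRAF on stood highest at 16.5 and 22.6 CPM per kb, followed by COL BRAF off at 20 and 17.9, COL p53 on at 16.2 and 16.9, COL BRAFp53 off at 17.1 and 13.9, COL p53 off at 15.2 and 11.5, and COL BRAFp53 on at 11.5 and 10.7. All SI groups lay below these. SI BRAFp53 off stood at 7.99 and 7.03 CPM per kb, SI p53 on at 7.87 and 6.56, SI BRAF off at 6.23 and 5.90, SI p53 off at 5.46 and 6.33, SI BRAFp53 on at 4.64 and 4.79, and SI BRAF on at 3.47 and 2.93. In this order COL BRAF on overlapped its neighbours, COL p53 on overlapped COL BRAFp53 off, which overlapped COL p53 off, SI BRAFp53 off overlapped SI p53 on, and SI BRAF off overlapped SI p53 off. The last 2 places, both induced SI groups with BRAFV600E, each lay apart from their neighbours.

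**Figure D2:**
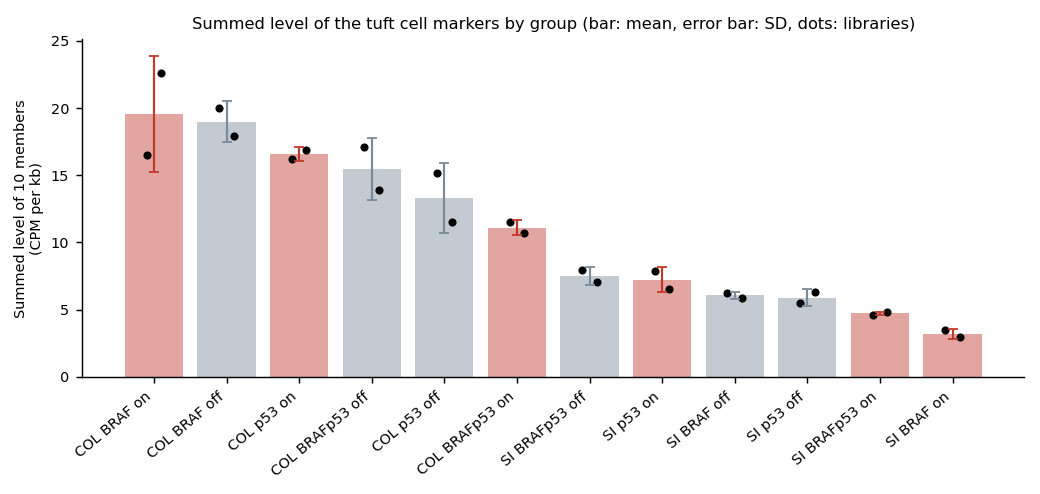
Summed level of the 10 members in CPM per kb for each group, in falling order (bars, means; error bars, SD of 2 libraries; dots, libraries; red on, grey off). The 6 COL groups stand above the 6 SI groups, and SI BRAF on is lowest at 3.20 ± 0.381 CPM per kb.

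**Figure D3:**
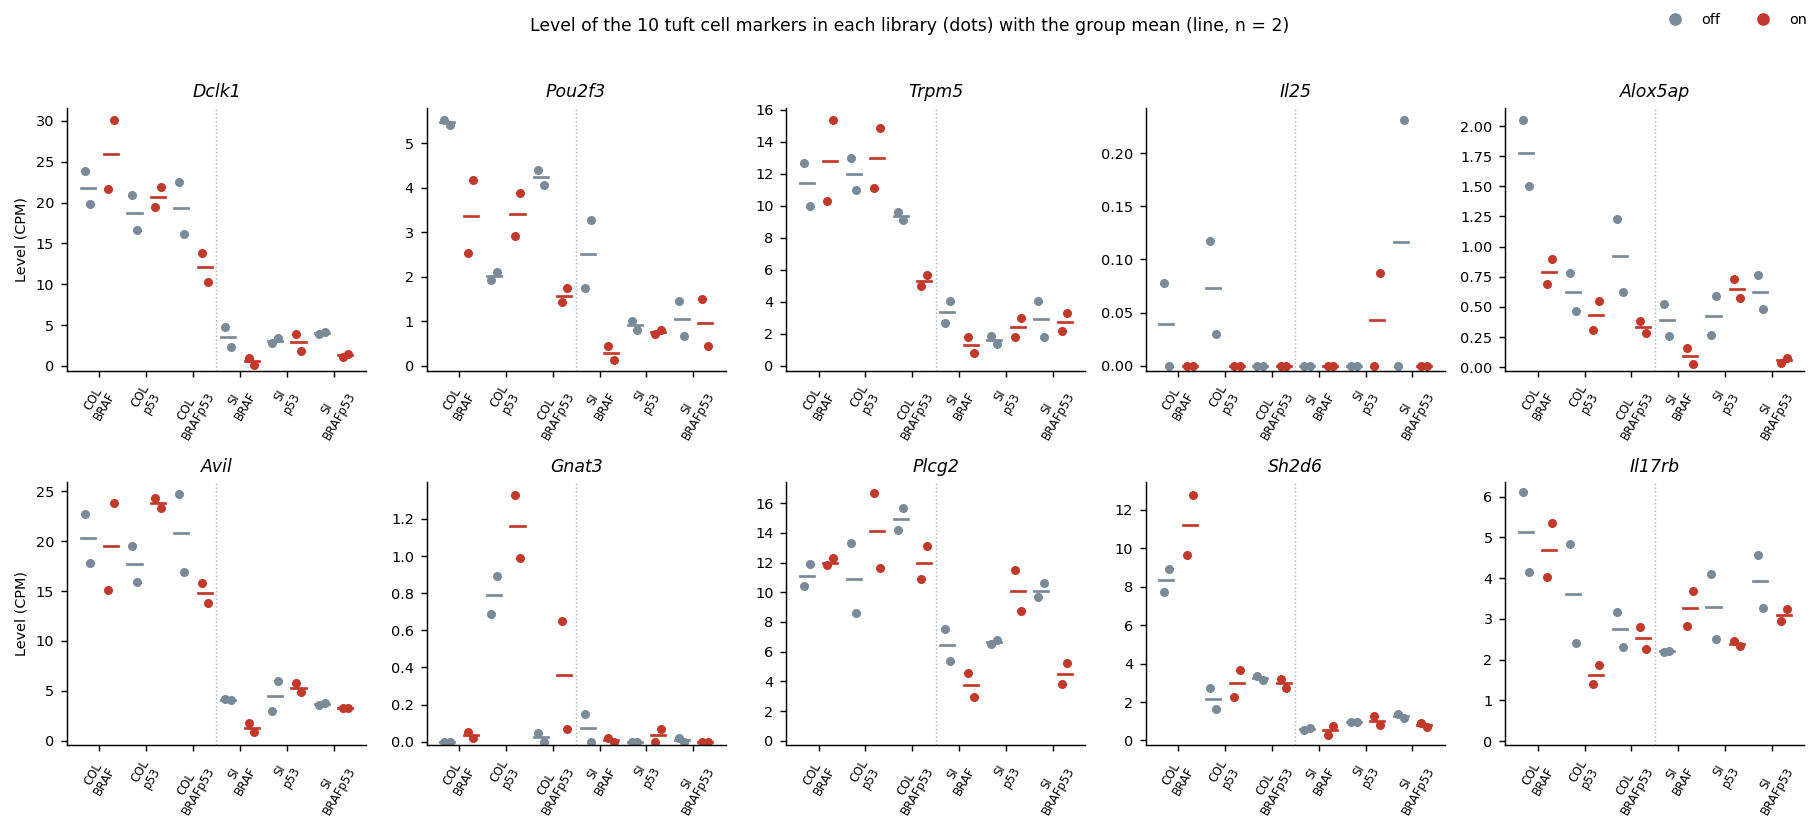
Level in CPM of each member in every library (dots) with the group mean (line), off in grey and on in red, COL left and SI right of the dotted line. Each panel has its own axis. In SI BRAF the on dots lie below the off dots for Pou2f3, Dclk1, Trpm5, Plcg2, Avil and Alox5ap.

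Induction of BRAFV600E alone in SI organoids lowered 5 of the 8 members tested and raised 0. Among all 16856 genes tested in SI, 14.2% fell and 31.7% were called in either direction in this comparison. The master regulator Pou2f3 stood at 1.75 and 3.29 CPM in the off libraries and at 0.441 and 0.129 CPM in the on libraries, the last resting on 5 counts. Both on libraries were below both off libraries, and Pou2f3 fell with a log2 fold change of -3.10 ± 0.69 SE (edgeR adjusted p = 0.00385). Dclk1 stood at 4.70 and 2.27 CPM off and at 1.02 and 0.129 CPM on, and it fell with a log2 fold change of -2.54 ± 0.63 SE (edgeR adjusted p = 0.00741). The libraries did not overlap, though the 2 on libraries differed widely from each other.

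In the sensing cascade, Trpm5 stood at 2.70 and 4.08 CPM off and 1.80 and 0.774 CPM on. Plcg2, a phospholipase C other than Plcb2, the one read here as part of the cascade, stood at 7.53 and 5.36 CPM off and 4.57 and 2.94 CPM on. For both the on libraries were the lower ones, by a smaller step than for Pou2f3 and Dclk1, and the log2 fold changes were -1.38 ± 0.47 SE for Trpm5 (edgeR adjusted p = 0.04) and -0.77 ± 0.26 SE for Plcg2 (adjusted p = 0.037). Neither was called with limma-voom (adjusted p = 0.0507 and 0.0738), and Trpm5 was not with a replicate block (0.0745). Avil, a protein of the apical actin bundles, was at 4.13 and 4.12 CPM off and at 1.74 and 0.878 CPM on. It fell with a log2 fold change of -1.64 ± 0.36 SE (edgeR adjusted p = 0.00337), the smallest adjusted p of the members in this comparison.

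The other 3 members tested were not called. Alox5ap was at 0.527 and 0.259 CPM off and at 0.160 and 0.0258 CPM on, 8 and 1 counts, with a log2 fold change of -1.99 ± 0.85 SE (edgeR adjusted p = 0.095). Sh2d6 was at 0.569 and 0.648 CPM off and at 0.280 and 0.774 CPM on, so that the on libraries lay on either side of the off libraries (log2 -0.23 ± 0.51 SE, adjusted p = 0.777). Il17rb was at 2.19 and 2.20 CPM off and at 2.82 and 3.69 CPM on. It was the 1 member tested whose log2 fold change was above 0, at 0.56 ± 0.29 SE (edgeR adjusted p = 0.165). The median over the 8 members was -1.51, beside -0.06 over all genes tested.

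In the on library with the raised Xist level, replicate 1, the called members were higher than in replicate 2. Without it, and with the remaining on library assumed to vary as the other groups do, the log2 fold changes were -4.71 for Dclk1 (edgeR adjusted p = 0.000303), -4.25 for Pou2f3 (0.00333), -2.21 for Avil (0.00136), -2.11 for Trpm5 (0.0124) and -1.11 for Plcg2 (0.0128), and Alox5ap was called at -3.8 (0.0379). Without replicate 2 instead, Pou2f3, Dclk1 and Avil were still called at -2.52, -1.77 and -1.25 (edgeR adjusted p = 0.035, 0.0329 and 0.0352), while Trpm5 at -0.92 (0.243) and Plcg2 at -0.50 (0.257) were not. The calls of Pou2f3 and Avil were kept with each of the 12 SI libraries left out in turn. The call of Dclk1 was lost without off replicate 1 (adjusted p = 0.0622), that of Trpm5 also without off replicate 2, and that of Plcg2 also without 3 off libraries.

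In SI organoids with both alleles, 2 of the 8 members fell, beside 4.53% of all genes tested that fell and 11.5% called in either direction. Alox5ap stood at 0.761 and 0.480 CPM off, 43 and 27 counts, and at 0.0363 and 0.0761 CPM on, 2 and 5 counts. Plcg2 stood at 9.66 and 10.6 CPM off and at 3.8 and 5.22 CPM on. Neither gene overlapped between the states, and the log2 fold changes were -3.39 ± 0.88 SE for Alox5ap (edgeR adjusted p = 0.0237) and -1.16 ± 0.25 SE for Plcg2 (adjusted p = 0.00913). The call of Alox5ap was lost without either on library or without off replicate 1 (adjusted p up to 0.136), and that of Plcg2 without on replicate 1 or off replicate 2 (up to 0.0863).

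Dclk1 was also lower in both on libraries, at 1.07 and 1.49 CPM against 3.88 and 4.13 CPM off, but was not called in the edgeR fit (log2 -1.64 ± 0.58 SE, adjusted p = 0.0897). DESeq2 and limma-voom called it (adjusted p = 0.0257 and 0.0413), as did edgeR with a replicate block (0.0418) or without a filter on low counts (0.000126). Pou2f3 stood at 1.45 and 0.676 CPM off and at 1.51 and 0.441 CPM on, and Trpm5 at 4.05 and 1.83 CPM off and at 2.20 and 3.33 CPM on. Their states overlapped, with log2 fold changes of -0.13 ± 0.62 SE (edgeR adjusted p = 0.929) and -0.09 ± 0.45 SE (0.937). Avil stood at 3.54 and 3.74 CPM off and at 3.29 and 3.29 CPM on (log2 -0.15 ± 0.33 SE, adjusted p = 0.849). Sh2d6 and Il17rb gave log2 fold changes of -0.65 ± 0.48 SE and -0.34 ± 0.29 SE (edgeR adjusted p = 0.467 and 0.522). The median over the 8 members was -0.50, beside -0.03 over all genes tested.

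Mutant p53 alone left 0 of the 8 members called in SI by edgeR, DESeq2 or limma-voom, where 0.0% of all genes were called by edgeR, and 1 member had an unadjusted p under 0.05, as had 5.18% of all genes. That member was Plcg2, at 6.48 and 6.76 CPM off and 11.5 and 8.71 CPM on (log2 0.61 ± 0.25 SE, edgeR adjusted p = 0.888). The log2 fold changes of the other 7 ran from -0.46 for Il17rb to 0.60 for Alox5ap, and Pou2f3 stood at 1.01 and 0.811 CPM off and at 0.728 and 0.799 CPM on.

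**Figure D4:**
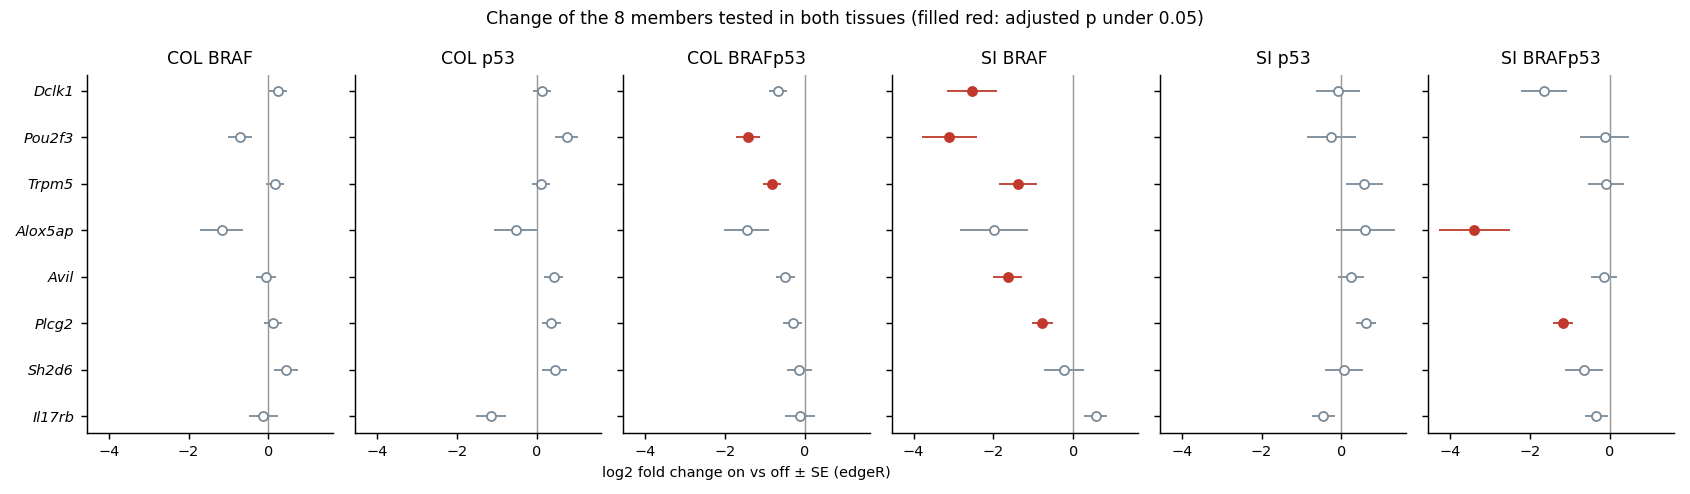
Log2 fold change of on against off (points) with its SE (bars) from edgeR for the 8 members tested in both tissues, 1 panel per culture, with filled red points at an adjusted p under 0.05. The called points all lie below 0: 5 in SI BRAF, 2 in SI BRAFp53 and 2 in COL BRAFp53.

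In COL organoids BRAFV600E alone left 0 of the 9 members tested called by edgeR, DESeq2 or limma-voom, although 19.9% of all 18972 genes tested were called by edgeR, and 1 member had an unadjusted p under 0.05, as had 32.3% of all genes. Dclk1 stood at 23.9 and 19.8 CPM off and at 21.6 and 30.1 CPM on, and Avil at 22.7 and 17.8 CPM off and at 15.1 and 23.8 CPM on. In both the states overlapped, with log2 fold changes of 0.24 ± 0.22 SE for Dclk1 (edgeR adjusted p = 0.513) and -0.06 ± 0.24 SE for Avil (0.91). Pou2f3 was lower in both on libraries, at 2.54 and 4.17 CPM against 5.53 and 5.42 CPM off. This gene had the unadjusted p of 0.0316, and its log2 fold change of -0.71 ± 0.29 SE was not called (edgeR adjusted p = 0.112).

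Alox5ap showed the same order without a call, at 2.05 and 1.5 CPM off and 0.686 and 0.893 CPM on (log2 -1.17 ± 0.54 SE, edgeR adjusted p = 0.157). Sh2d6 lay the other way, at 7.74 and 8.94 CPM off and 9.63 and 12.8 CPM on (log2 0.43 ± 0.30 SE, adjusted p = 0.368). Trpm5, Plcg2 and Il17rb overlapped between the states with log2 fold changes from -0.13 to 0.17. The COL BRAF culture is the one that held Gata4, so these values cannot be compared with a second COL BRAF culture. The median over the 9 members was 0.11, beside -0.01 over all genes tested.

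With both alleles, 2 of the 9 members fell in COL, Pou2f3 and Trpm5, where 7.76% of all genes tested fell and 17.7% were called in either direction. Pou2f3 stood at 4.41 and 4.07 CPM off and at 1.43 and 1.74 CPM on, and Trpm5 at 9.62 and 9.13 CPM off and at 4.97 and 5.65 CPM on. Both genes were separate between the states and their replicates lay close together. The log2 fold changes were -1.42 ± 0.30 SE for Pou2f3 (edgeR adjusted p = 0.00689) and -0.82 ± 0.23 SE for Trpm5 (adjusted p = 0.031). The call of Pou2f3 was lost without on replicate 1 (adjusted p = 0.0737), and that of Trpm5 without any 1 of the 4 libraries of this culture (adjusted p up to 0.192). With the COL BRAF culture left out of the fit, an alternative added after seeing the data, both were called (edgeR adjusted p = 0.0117 and 0.0257).

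Of the members not called in COL BRAFp53, Dclk1 stood at 22.5 and 16.1 CPM off and at 13.8 and 10.3 CPM on (log2 -0.68 ± 0.23 SE, edgeR adjusted p = 0.0586), and DESeq2 (adjusted p = 0.0236) and edgeR without a filter on low counts (0.00603) called it. Alox5ap stood at 1.23 and 0.627 CPM off and at 0.381 and 0.287 CPM on (log2 -1.46 ± 0.56 SE, edgeR adjusted p = 0.0922). Avil and Plcg2 were also lower in both on libraries, with log2 fold changes of -0.49 ± 0.24 SE and -0.31 ± 0.23 SE (edgeR adjusted p = 0.187 and 0.387), whereas Sh2d6 and Il17rb overlapped. Gnat3 was called by DESeq2 (adjusted p = 0.0214) and by edgeR without a filter (0.00321) but not with it (0.0592), on the 48 counts of on replicate 1. Over the 9 members the median was -0.49, beside -0.04 over all genes tested.

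Mutant p53 alone left 0 of the 9 members called in COL by edgeR, DESeq2 or limma-voom, beside 0.142% of all genes called by edgeR, and 2 members had an unadjusted p under 0.05, as had 8.34% of all genes. Pou2f3 was at 1.94 and 2.11 CPM off and at 2.92 and 3.89 CPM on (log2 0.75 ± 0.29 SE, edgeR adjusted p = 0.499). Il17rb was at 4.83 and 2.41 CPM off and at 1.39 and 1.87 CPM on (log2 -1.15 ± 0.37 SE, adjusted p = 0.364). Both genes separated the states without passing the test. Avil, at 19.5 and 15.9 CPM off and 24.3 and 23.3 CPM on, gave a log2 fold change of 0.43 ± 0.24 SE (edgeR adjusted p = 0.701).

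Whether the responses themselves differed was then tested. Each genotype is 1 culture per tissue, so a difference between genotypes cannot be told apart from one between cultures or donors. SI BRAF held Ddx3y, which was at no more than 3 counts in SI BRAFp53, and in COL the BRAF culture held Gata4. Between BRAFp53 and BRAF organoids 0 of 9 members differed in COL by edgeR with its filter, DESeq2 or limma-voom, where 0.907% of all genes did by edgeR, and 2 members had an unadjusted p under 0.05, as had 19.0% of all genes. These were Trpm5, whose response was lower by 0.99 ± 0.33 SE on the log2 scale in BRAFp53 (edgeR adjusted p = 0.135), and Dclk1, lower by 0.92 ± 0.32 SE (adjusted p = 0.153), which edgeR without a filter on low counts called (adjusted p = 0.0297). The 2 falls called in COL BRAFp53 and not in COL BRAF, those of Pou2f3 and Trpm5, were therefore not shown to differ between the genotypes. In SI, 0 of 8 members differed by edgeR or limma-voom, where 8.2% of all genes did by edgeR, and 3 had an unadjusted p under 0.05, as had 22.5% of all genes. The response of Il17rb was lower in BRAFp53, with a log2 difference of -0.91 ± 0.41 SE (edgeR adjusted p = 0.208). The response of Pou2f3 was higher in BRAFp53 by 2.97 ± 0.92 SE on the log2 scale (edgeR adjusted p = 0.0664) and that of Avil by 1.49 ± 0.49 SE (adjusted p = 0.0811). DESeq2 and edgeR without a filter called both, and edgeR with its filter called Pou2f3 at 4.12 (adjusted p = 0.024), Avil at 2.08 (0.0183) and Dclk1 at 3.09 (0.033) without the SI BRAF on replicate 1 library.

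Between the tissues, the BRAF response differed for 2 of 9 members, Dclk1 and Avil, beside 10.7% of all 19673 genes tested in the joint fit of both tissues. The response of Dclk1 was higher in COL than in SI by 2.71 ± 0.66 SE on the log2 scale (edgeR adjusted p = 0.0118) and that of Avil by 1.53 ± 0.45 SE (adjusted p = 0.0336). Avil was not called with limma-voom (adjusted p = 0.131), with a replicate block or in 5 of the 24 fits with 1 library left out. For Pou2f3 the difference was 2.35 ± 0.75 SE (edgeR adjusted p = 0.0528) and for Trpm5 1.51 ± 0.54 SE (adjusted p = 0.0878), and DESeq2 (adjusted p = 0.0161 and 0.0365) and edgeR without a filter (0.00819 and 0.00492) called both. Without the SI BRAF on replicate 1 library all 4 were called, at 4.92 for Dclk1 (edgeR adjusted p = 0.000665), 2.12 for Avil (0.0132), 3.51 for Pou2f3 (0.0225) and 2.25 for Trpm5 (0.0267). Without replicate 2 of that group Dclk1 alone was called, at 1.97 (edgeR adjusted p = 0.0428). The COL side of these differences is the culture that held Gata4. The BRAFp53 response differed between the tissues for 0 of 9 members by edgeR, DESeq2 or limma-voom, beside 3.52% of all genes by edgeR, and Plcg2 alone had an unadjusted p under 0.05, as had 17.8% of all genes (log2 difference 0.81 ± 0.36 SE, edgeR adjusted p = 0.238).

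A list of 33 other tuft cell genes, made with earlier results of these data known, was read beside the members. In off organoids 16 of 31 tested were higher in COL and 2 were lower, beside 17.0% and 12.6% of all genes. After BRAF induction in SI, 10 of 29 tested fell and 3 rose, beside 14.2% of all genes that fell and 17.5% that rose. The transcription factor Spib, which works in M and tuft cells, fell (edgeR adjusted p = 0.000229) from 83 and 40 counts off to 2 and 0 counts on. In the cascade the G protein subunit Gnb3 fell with a log2 fold change of -2.54 ± 0.82 SE (edgeR adjusted p = 0.0308). The signalling genes that fell most were Nrep (log2 -3.60, adjusted p = 0.00385), Vav1 (-3.25, 0.0142), Kctd12 (-2.46, 0.000858) and Rgs13, a regulator of G protein signalling (-2.37, 0.005), and 4 more of their list fell by log2 fold changes from -2.24 to -1.42. Those that rose were Rgs2 (log2 2.07, adjusted p = 0.00533), the actin-bundling Espn (1.93, 1.13e-06) and the phosphatase Ptpn6 (0.85, 0.000329), which other epithelial or blood cells also use. Without the on replicate 1 library, which leaves 1 on library, 31 of these genes were tested, so counts of calls are not set beside those above. Gnb3 (log2 -2.14, edgeR adjusted p = 0.148) and Vav1 (-2.44, 0.0987) were then not called, while Spib (0.000554), Nrep (3.04e-05), Kctd12 (0.00261), Rgs13 (0.000534), Rgs2 (0.0135), Espn (6.44e-07) and Ptpn6 (0.00138) were.

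In SI BRAFp53 organoids, where 4.53% of all genes fell and 6.98% rose, 0 of the 29 other tuft genes fell by edgeR (1 by DESeq2 and 0 by limma-voom), 8 had an unadjusted p under 0.05, as had 24.6% of all genes, and 3 rose, Rgs2 (log2 2.01, edgeR adjusted p = 0.0153), the keratin Krt18 (0.80, 5.34e-05) and Espn (0.56, 0.0259). In COL BRAFp53 7 of 32 fell and 3 rose, beside 7.76% and 9.95% of all genes. Among those that fell were the prostaglandin D synthase Hpgds (log2 -1.54 ± 0.23 SE, edgeR adjusted p = 0.00111), the leukotriene C4 synthase Ltc4s (-1.58 ± 0.46, 0.0348), Rgs13 (-1.25, 0.00254), Nrep (-1.23, 0.00134), the kinase Bmx (-1.17, 0.0242) and Kctd12 (-0.89, 0.0268), and those that rose were Krt18 (1.26, 6.54e-05), Ptpn6 (0.57, 0.0435) and the calcium channel Itpr3 (0.55, 0.0373). In COL BRAF, where 9.61% of all genes fell and 10.3% rose, 2 of 32 fell, Hpgds (-1.04, 0.00994) and Nrep (-1.74, 0.000172), and 6 rose, among them Alox5, the 5-lipoxygenase that works with Alox5ap, at 1.63 ± 0.40 SE (edgeR adjusted p = 0.0132), Itpr3 (0.60, 0.0215), Krt18 (1.48, 1.87e-05), the kinase Matk (1.47, 0.00358) and Espn (0.80, 0.0101). With p53 alone edgeR called 0 in either tissue, with 3 at an unadjusted p under 0.05 in COL and 0 in SI, beside 8.34% and 5.18% of all genes, and DESeq2 called 1 in COL and 0 in SI.

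**Figure D5:**
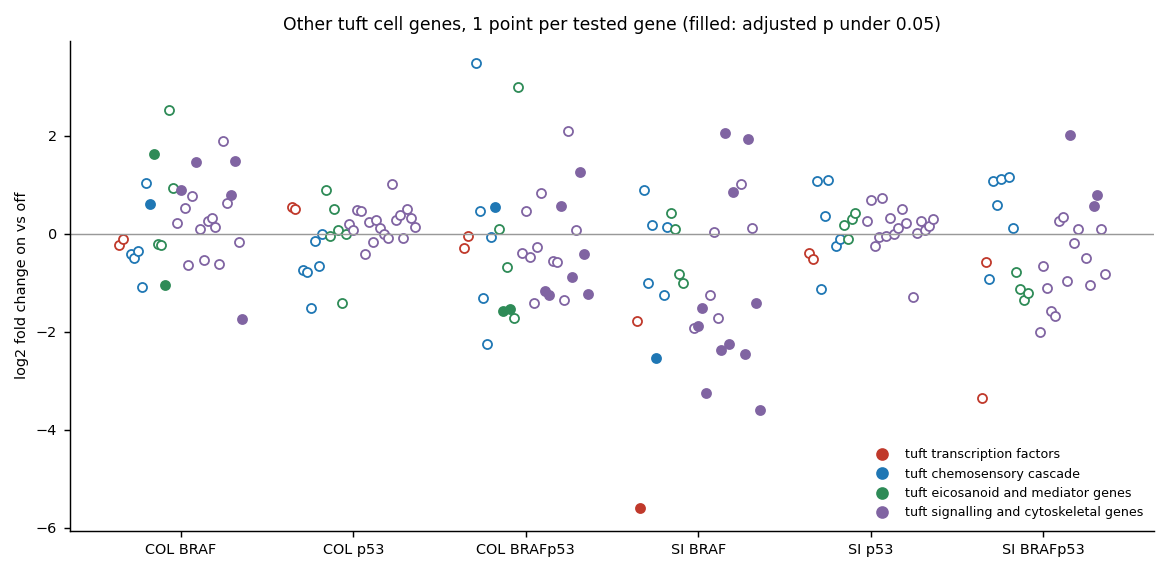
Log2 fold change of on against off for each tested gene of 4 lists of other tuft cell genes, by culture (filled, edgeR adjusted p under 0.05; colours, lists). In SI BRAF 10 filled points lie below 0 and 3 above, and in both p53 cultures all points are open. The lowest point, Spib in SI BRAF, rests on 2 counts in the on libraries, so its fitted size is no bound.

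Tuft cell number is known to respond to the type 2 cytokines interleukin-4 and interleukin-13, which signal through Il4ra, Il13ra1 and Stat6. Of the 4 genes of this circuit tested, Il4ra rose in COL BRAF (log2 0.83 ± 0.22 SE, edgeR adjusted p = 0.0177), COL BRAFp53 (1.04 ± 0.22, 0.00633) and SI BRAF (1.04 ± 0.26, 0.00758), and Il13ra1 rose in SI BRAF (1.51 ± 0.15, 1.03e-05) and SI BRAFp53 (0.78 ± 0.15, 0.00469). These are 1, 1, 2 and 1 of 4 genes in COL BRAF, COL BRAFp53, SI BRAF and SI BRAFp53, beside 10.3%, 9.95%, 17.5% and 6.98% of all genes that rose. Of 6 regulators of the secretory lineage, Sox4 and Hes1 fell in SI BRAF (log2 -1.56 ± 0.26 SE and -1.15 ± 0.14 SE, edgeR adjusted p = 0.000548 and 3.75e-05) and in COL BRAFp53 (-1.13 and -0.55, 0.0145 and 0.0377). Atoh1, the factor that starts secretory fate, fell in COL BRAF (-1.29 ± 0.18 SE, edgeR adjusted p = 0.000487) together with Hes1 (-0.55, 0.0342). The goblet cell factor Spdef rose in COL BRAF (0.69, 0.0188), COL BRAFp53 (1.16, 0.00124) and SI BRAFp53 (1.72, 0.000102). In these comparisons 2 of the 6 fell in SI BRAF, COL BRAFp53 and COL BRAF, beside 14.2%, 7.76% and 9.61% of all genes, so the counts rest on few genes. Without the SI BRAF on replicate 1 library the calls of Il4ra, Il13ra1, Sox4 and Hes1 in SI BRAF were kept.

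Markers of another secretory cell were read beside the members. The summed level of 14 enteroendocrine genes was 71.9 to 107 CPM in SI BRAF off and 125 to 204 CPM in SI BRAF on, and 183 to 218 against 276 to 298 CPM in SI BRAFp53. In COL BRAFp53 it was 297 to 362 CPM off and 626 to 838 CPM on, and in COL BRAF 275 to 455 against 794 to 908 CPM. With p53 alone it was 460 to 618 CPM off and 779 to 830 CPM on in COL, also without overlap, and 83.8 to 141 against 106 to 150 CPM in SI. Of the 14, 3 rose in SI BRAF and 0 fell, beside 17.5% and 14.2% of all genes. The 3 were Pyy, Sct and Tac1, with log2 fold changes of 4.92, 2.78 and 1.4. Without on replicate 1, which leaves 1 on library, these changes were 4.99, 2.77 and 0.86. In SI BRAFp53 4 rose and 1 fell, the somatostatin gene Sst, from 82 and 150 counts off to 0 and 5 counts on (edgeR adjusted p = 0.00587), beside 6.98% and 4.53% of all genes. In COL 8 rose with BRAF and 7 with BRAFp53, beside 10.3% and 9.95% of all genes, and 0 fell in either, beside 9.61% and 7.76%. With p53 alone 0 were called, beside 0.142% of all genes in COL and 0.0% in SI. An unadjusted p under 0.05 was found for 3 in COL and 0 in SI, beside 8.34% and 5.18% of all genes.

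The summed level of the 10 immune markers was 13.6 to 16.6 CPM off and 32.9 to 45.6 CPM on in SI BRAF, a mean of 11.9 against 31.2 CPM in SI BRAFp53, 41.1 to 46.3 against 55.8 to 66.2 CPM in COL BRAF and 52.1 to 60.5 against 106 to 109 CPM in COL BRAFp53. With p53 alone it was 88 to 100 CPM off and 125 to 140 CPM on in COL. In SI p53 it was 11.4 to 12.7 CPM off and 12.8 to 13.9 CPM on. With p53 alone edgeR called 0 of the 5 tested in either tissue, beside 0.142% of all genes in COL and 0.0% in SI. An unadjusted p under 0.05 was found for 2 in COL and 1 in SI, beside 8.34% and 5.18% of all genes. Of the 5 tested, 3 rose in SI BRAF and 0 fell, beside 17.5% and 14.2% of all genes. These were Cd14, a co-receptor for bacterial lipopolysaccharide (log2 1.18, edgeR adjusted p = 0.00134), the integrin Itgam (1.57, 0.000531) and the receptor Csf1r (2.79, 0.0274), and all 3 were also called without on replicate 1. The same 3 rose in SI BRAFp53, at 1.12, 0.99 and 3.15 (edgeR adjusted p = 0.00534, 0.0312 and 0.0271), beside 6.98% of all genes. Cd14 and Cd68 rose in COL BRAF (0.50 and 0.93, 0.0174 and 0.0116) and COL BRAFp53 (0.91 and 1.87, 0.000682 and 0.00026), beside 10.3% and 9.95% of all genes. Other genes of the list lay the other way without a call. The on libraries lay below the off libraries for Cd68 in SI BRAF (log2 -0.51, edgeR adjusted p = 0.441), Csf1r in COL BRAF (12 and 38 counts off, 0 and 2 on, 0.0664) and Itgam in COL BRAFp53 (-1.59, 0.137), and Itgam overlapped in COL BRAF (-0.58, 0.61). Cd3e, Adgre1 and Cpa3 stayed at or under 3 counts. The part of enteroendocrine or immune markers in the members' levels was not tested.

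Over the 12 libraries of a tissue the members did not follow 1 pattern. As a description, Pearson's r between the log2 levels of 2 members ran from -0.66 to 0.85 over 36 pairs in COL, with a median of 0.31, and from -0.49 to 0.91 over 28 pairs in SI, with a median of 0.42. Dclk1 and Trpm5 were the closest pair in COL, at 0.85, and Alox5ap and Plcg2 in SI, at 0.91, while Gnat3 and Sh2d6 lay farthest apart in COL, at -0.66. Without SI BRAF on replicate 1 the SI pairs ran from -0.56 to 0.91 with a median of 0.38. These libraries share 3 cultures, so the values hold the differences between cultures as well as those between states.

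The genes most like the members' mean z score, among 12645 non-member genes of COL with an average log2 CPM of at least 0, were Bmx (r = 0.94), Vav1 (0.89), Nudt13 (0.88), Pik3cg (0.88) and Bcor (0.87). Bmx and Vav1 belong to the lists of other tuft genes. Bmx stood at 5.93 CPM in COL BRAFp53 off and 2.63 CPM in COL BRAFp53 on by group mean, and at 6.69 and 7.20 CPM in COL BRAF off and on. In SI the closest of 11762 genes were Primpol (0.98), Klf11 (0.96), Bbx (0.96), Timeless (0.96) and Degs1 (0.95), none of them on a tuft list, and without SI BRAF on replicate 1 these 5 stood at 0.94 to 0.98. Timeless, a protein of the replication fork, stood at 25.5 CPM in SI BRAF off and 13.8 CPM in SI BRAF on.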

How the data were processed

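The 24 libraries were paired-end, and per the labels and the study's methods reads were trimmed with Trimmomatic 0.36 and aligned to the mouse genome and counted per gene with STAR 2.5.2b, versions as in the submitters' processing notes. The notes list mm9 and mm10, and the methods name mm10. The authors deposited unnormalized counts of reads in each gene, 1 column per library. Which annotation release was counted, and whether strand was used, was not given in the sources used here. Symbols, positions and exon lengths came from GENCODE M21 (GRCm38), which matched 45143 of the 45706 identifiers.

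Per tissue, the 12 libraries were scaled by TMM, filtered with filterByExpr and fitted in 1 quasi-likelihood model with a mean per group (edgeR 4.0.16, R 4.3.3). A gene was called where its p, adjusted by Benjamini-Hochberg over all genes tested, was under 0.05. Tissue differences in response used a joint fit of 24 libraries. Off organoids were compared on 3 summed cultures per tissue, and a genotype block there and fits without the COL BRAF culture were added after seeing the data. Of the 10 members, 9 passed the filter in COL and 8 in SI. The study used limma, and raw counts are tested here with edgeR, with limma-voom (3.58.1) and DESeq2 (1.42.0) among the alternatives. The scripts were tested on simulated counts. Levels are TMM-scaled CPM, given as mean and SD of 2 libraries. The likeness to other genes used log2(CPM + 0.5).

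The members and lists were chosen with earlier results of these data known, though the rule for the members used no measured value. Besides the members, the text names, for each list of other tuft genes, type 2 circuit genes and secretory regulators, up to 4 called genes per direction and comparison by size of change, and per tissue the 5 named genes with the highest r to the members' mean z score. Libraries sharing a replicate number in on and off did not deviate together (r from -0.059 to 0.085), so no pairing was used. Each library was kept as 1 sample.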

Additional observations from a re-analysis of the deposited data

Results flagged for a closer look

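The response to BRAFV600E differed between the tissues for 2 members by the test of the difference itself. For Dclk1 the log2 response in COL exceeded that in SI by 2.71 ± 0.66 SE (edgeR adjusted p = 0.0118): both SI on libraries lay below both off libraries, and the COL libraries overlapped. For Avil the same difference was 1.53 ± 0.45 SE (edgeR adjusted p = 0.0336), with the same order of libraries. Over the alternatives that keep all libraries the adjusted p of Dclk1 reached at most 0.0336 and that of Avil 0.131, the latter with limma-voom. With 1 library left out in turn, Dclk1 was called in 23 of 24 fits and Avil in 19 of 24. The tissues also differed in 4-hydroxytamoxifen dose, day of RNA and medium, which cannot be told apart from tissue. The library SI BRAF on replicate 1, which stood apart by its Xist level, enters both differences, and without it they were 4.92 for Dclk1 and 2.12 for Avil (edgeR adjusted p = 0.000665 and 0.0132). The COL BRAF culture, which held Gata4, enters both as well and could not be replaced by another. No formal test for outlying libraries was made, since the groups hold 2 libraries each.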

How the results depend on the processing

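Counts of members called changed by over 1.5 times as follows. In COL BRAFp53, where 2 were called, no filter on low counts and DESeq2 gave 4 each, and a further minimum of 1 on the size of the log2 fold change gave 1. Without a filter, the difference of BRAFp53 and BRAF responses gave 1 in COL (Dclk1) and 2 in SI (Pou2f3 and Avil), and the BRAF response between tissues gave 4. DESeq2 gave 2 for the difference in SI and 4 for the BRAF response between tissues. Counts over all genes rose as well. With edgeR, DESeq2 and no filter they were 3360 of 18972, 4307 of 18972 and 4066 of 30407 in COL BRAFp53. For the difference in SI they were 1383 of 16856, 2108 of 16856 and 2044 of 26898. For the BRAF response between tissues they were 2108 of 19673, 2920 of 19673 and 2580 of 31779. In COL the difference gave 172 of 18972 with edgeR and 1312 of 30407 without a filter. In SI BRAF limma-voom gave 3 in place of 5 (Trpm5 and Plcg2 were lost), and in the BRAF response between tissues 1 in place of 2 (Avil was lost). With a replicate block, 1 member was called in COL BRAFp53 (Trpm5 was lost) and 1 for the BRAF response between tissues (Avil was lost), 4 in SI BRAF and 3 in SI BRAFp53, and other counts stayed at 0. The numbers did not pair the libraries, so a call lost under the block is not a weaker effect.

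With 1 library left out in turn, the counts ran from 0 to 2 in COL BRAFp53, 3 to 6 in SI BRAF, 0 to 3 in SI BRAFp53, 0 to 3 for the difference of responses in SI, and 1 to 4 for the BRAF response between tissues, and with 1 culture left out from 3 to 4 between off tissues. No called member changed sign under any alternative. Of the uncalled members, Trpm5 in SI BRAFp53 was at 0.01 with limma-voom, and these changed sign with a library left out: in COL BRAF Avil (-0.44 to 0.22), Dclk1 (-0.03 to 0.45), Il17rb (-0.39 to 0.18) and Trpm5 (-0.16 to 0.42), in COL p53 Dclk1 (-0.02 to 0.32) and Trpm5 (-0.12 to 0.31), in COL BRAFp53 Il17rb (-0.32 to 0.13), in SI BRAF Sh2d6 (-1.12 to 0.36), in SI p53 Avil (-0.18 to 0.83), Dclk1 (-0.74 to 0.35) and Sh2d6 (-0.30 to 0.37), and in SI BRAFp53 Pou2f3 (-1.26 to 0.52) and Trpm5 (-0.54 to 0.59). The causes were not tested. Over all genes, counts that moved by over 1.5 times were COL p53 (27, DESeq2 324, no filter 569, replicate block 15), SI p53 (0, DESeq2 65, no filter 155, limma-voom 1), the difference of responses in COL (172, DESeq2 1364, no filter 1312, replicate block 17) and in SI (1383, DESeq2 2108), and the BRAFp53 response between tissues (693, DESeq2 1580, no filter 1548). RLE size factors and a minimum of 10 counts in 2 libraries moved no count past 1.5 times. Depth limits Il25, Gnat3 in SI and Alox5ap in the induced SI groups with BRAFV600E, which rest on a few counts. With a single culture per genotype and tissue, no difference of on and off is tested across mice. Which of the 3 cultures per tissue of the off comparison share a donor was not given. In p53 and BRAFp53 the COL cultures held Ddx3y and the SI cultures held Xist, and in BRAF they differed in Eif2s3y. Of the alternatives added after seeing the data, genotype as a block left 3 of 4 members called between off tissues (Sh2d6 was lost), and leaving the COL BRAF culture out left 2 called in COL BRAFp53 and 0 in COL p53 and in the BRAFp53 response between tissues. Over all genes these gave 3475 in place of 5270 between off tissues and 0 in place of 27 in COL p53.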
